A study of Mus musculus with 4 samples.

Results

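The miR-34 family of microRNAs (miRNAs) was followed across 4 single-colour miRNA arrays of mouse mast cells. Probes were taken by name: those for miR-34a, miR-34b or miR-34c under a mouse, human or rat label, leaving out passenger-strand and mismatch probes. This gave 3 of the 387 mouse miRNAs that the arrays read, on 4 of their 1406 probes: a human-named probe for each of miR-34a, miR-34b and miR-34c, and a mouse-named probe for miR-34b. Each of the 4 has a partner probe marked as carrying 2 mutations, called its mismatch probe here, which reads how much signal a near-miss sequence collects.

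Per the labels, each group was 1 array, so there is no replicate error and no test, and higher and lower describe pairs of arrays. P815 with imatinib was the P815 mast cell line, described as a D814V KIT mutant and grown without cytokines, given the KIT inhibitor imatinib at 10 nM for 24 h. P815 without imatinib was the same line left untreated. BMMC with SCF were primary murine bone-marrow-derived mast cells given SCF (stem cell factor, which binds and activates KIT, a receptor tyrosine kinase) at 100 ng per cc for 24 h. BMMC without SCF were such cells starved of SCF. BMMC had been grown in SCF and interleukin 3. P815 is 1 line, the arrays carry no readout of KIT activity, and activation-loop mutants of KIT are known to be less sensitive to imatinib than the normal receptor. P815 against BMMC therefore differs in cell source, KIT genotype and culture at once, and these cannot be told apart.

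miRNAs are short RNAs that guide Argonaute proteins to messenger RNAs, mainly through bases 2 to 8 of the miRNA, the seed. The genes of the miR-34 family are direct transcriptional targets of the tumour suppressor p53, and their miRNAs repress cell cycle and survival genes, among them cyclin-dependent kinases, Met and Bcl2. miR-34a comes from a gene of its own and is found in many tissues, whereas miR-34b and miR-34c are cut from 1 shared transcript that is best known from ciliated epithelium and testis. The miR-449 miRNAs, also known from ciliated cells, carry the same seed.

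The mature sequences below show why the members form a family and why their probes may not be fully separate. They are the mouse entries of RefSeq (GRCm38.p6), 5′ to 3′, with the seed in capitals.
mmu-miR-34a-5p: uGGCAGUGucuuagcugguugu
mmu-miR-34b-5p: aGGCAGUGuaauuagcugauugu
mmu-miR-449a-5p: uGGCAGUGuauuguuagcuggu
mmu-miR-449c-5p: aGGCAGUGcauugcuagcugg
mmu-miR-34a-3p: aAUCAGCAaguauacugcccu
mmu-miR-34b-3p: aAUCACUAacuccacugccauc
mmu-miR-34c-3p: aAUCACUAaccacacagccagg

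Of 1679 mature mouse miRNAs in that table, 4 have the seed GGCAGUG, namely the 5p arms of miR-34a, miR-34b, miR-449a and miR-449c. The miR-34c-5p entry was not among the sequences used. From base 2 on, miR-34b-5p matches miR-34a-5p for 8 bases, miR-449a-5p also matches it for 8, and miR-449c-5p matches it for 7. The 3p arms of miR-34b and miR-34c share a seed of their own and have the same base at 17 of 22 positions, while the 3p arm of miR-34a has a seed found in 1 mature miRNA. The array names give no arm for any of the 4 probes, so which arm each probe reads is unknown here. By position, miR-34a-5p lies on the plus strand at chr4:150068473-150068494, in a hairpin with no other annotated gene overlapping it. miR-34b-5p lies on the minus strand at chr9:51103610-51103632, and miR-34c-3p at chr9:51103044-51103065. The 2 hairpins of that locus are 451 bases apart on the minus strand, and both lie inside the annotated spans of the protein-coding genes Btg4 and Hoatz.

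The P815 arrays were dimmer as a whole than the BMMC arrays. The median of the 604 mismatch probes, taken as background, was 180.0 in P815 with imatinib, 203 in P815 without imatinib, 277 in BMMC with SCF and 296 in BMMC without SCF. A probe is called listed on an array where its intensity reached 1.5 times that median, the rule under which the authors' processed table holds a value. Differences are given on the log2 scale after normexp background correction and quantile normalization over the 4 arrays, with 387 mouse miRNAs read by 1 probe each as the comparison. Of the 7 miRNAs chosen as markers of mast and myeloid cells, 4 were listed in P815 with imatinib, 4 in P815 without imatinib, 6 in BMMC with SCF and 7 in BMMC without SCF, and the myeloid miRNA miR-223 was not listed in P815. Markers of other cell types were mixed. The endothelial miR-126 and the lymphocyte miR-150 were listed on no array, and the liver miRNA miR-122a on all 4. Of the erythroid markers miR-451 was listed on 0 arrays and miR-144 on 2, and of the muscle markers miR-133a was listed on 0, miR-1 on 1 and miR-206 on 4.

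miR-34a, the most widely expressed member of the family, was the 1 member that set the cell types apart. Its probe read 354 in P815 with imatinib and 312.5 in P815 without imatinib, against 2064 in BMMC with SCF and 2519 in BMMC without SCF. Both P815 arrays lay below both BMMC arrays, and the miRNA was listed on all 4. In P815 without imatinib it stood 1.03 times above the listing limit of the array, and in P815 with imatinib 1.31 times, against 4.96 times in BMMC with SCF and 5.68 times in BMMC without SCF. In bulk RNA, fewer cells that carry a miRNA and less of it per cell cannot be told apart.

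In P815 without imatinib normalized miR-34a was 4.24-fold below its level in BMMC with SCF (log2 difference -2.09), the pair with the mutant receptor or the ligand. It was 3.36-fold lower in P815 with imatinib than in BMMC without SCF (-1.75), the pair with the inhibitor or without the ligand. These pairs share no array. Without scaling the values were -3.09 and -3.05, or -1.78 and -1.76 relative to the median of all listed mouse miRNAs. Many miRNAs were also lower in P815: 30.3% of the 195 listed mouse miRNAs were at least 2-fold lower in the first pair and 15.1% of 258 in the second. Within them miR-34a was far down, with 13 miRNAs more negative in the first pair and 15 in the second. Both P815 arrays lay below both BMMC arrays for 37.3% of the 263 mouse miRNAs listed on any array, and by at least 2-fold for 10.6%, miR-34a among these.

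The mismatch probe of miR-34a did not follow its matched probe between cell types. It read 403 in P815 with imatinib and 270.0 in P815 without imatinib, against 370.0 in BMMC with SCF and 495 in BMMC without SCF. Normalized, it differed by 0.09 in P815 without imatinib against BMMC with SCF and by 0.97 in P815 with imatinib against BMMC without SCF. The ratio of the matched probe to its mismatch probe was 0.878 in P815 with imatinib, where the mismatch probe was the brighter of the pair, and 1.16 in P815 without imatinib. It was 5.58 in BMMC with SCF and 5.09 in BMMC without SCF. Among listed mouse miRNAs that have such a partner, the median of this ratio was 2.39 in P815 with imatinib, 1.90 in P815 without imatinib, 3.26 in BMMC with SCF and 2.63 in BMMC without SCF. Of these matched probes, 12.3% were dimmer than their mismatch probe in P815 with imatinib. The P815 signal of miR-34a was thus close to that of its near-miss sequence and the BMMC signal well above it, so the size of the fold between cell types rests on P815 values near background.

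**Figure D1:**
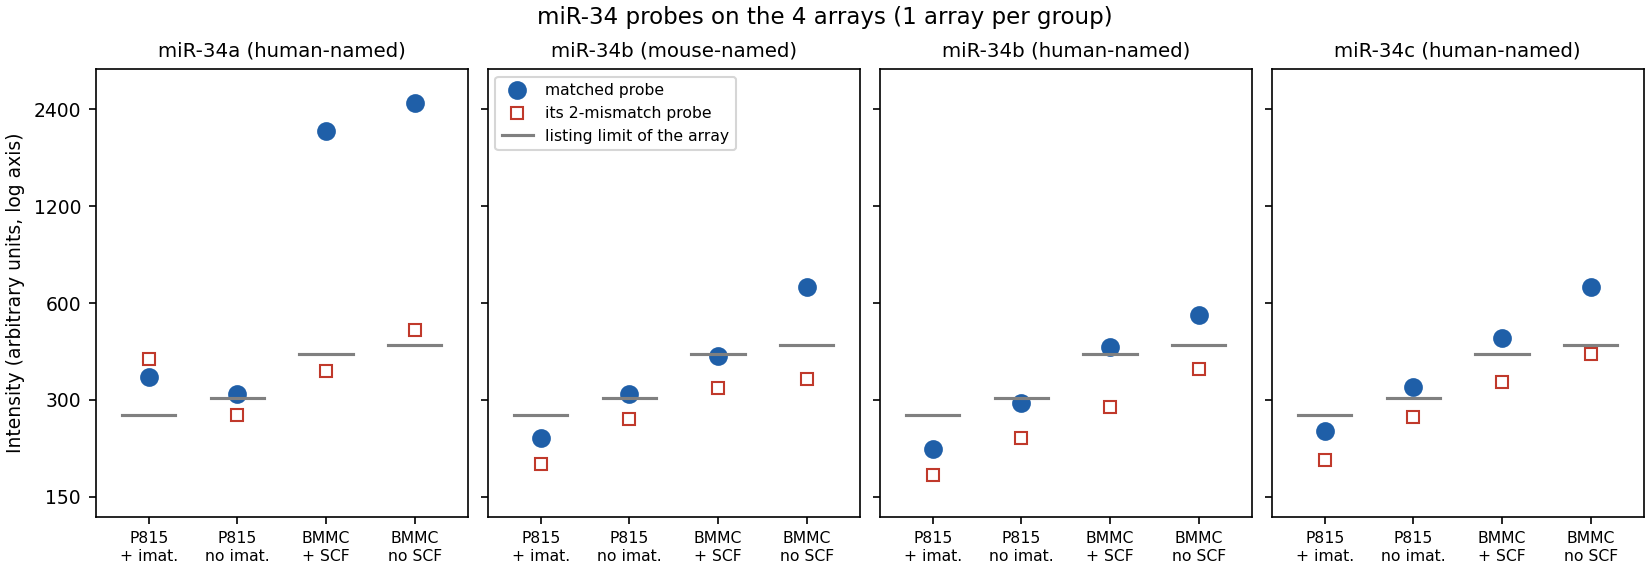
Intensity (arbitrary units, log axis) of the 4 miR-34 probes (circles) and of the mismatch probe of each (squares) on the 4 arrays, 1 array per group, with the listing limit of each array as a grey bar. miR-34a stands at 354 and 312.5 in P815, close to its mismatch probe, and at 2064 and 2519 in BMMC, while the other 3 probes stay near the limit on every array.

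miR-34b and miR-34c, the pair made from a shared transcript, were near the listing limit throughout, between 0.782 and 1.52 times it. The mouse-named miR-34b probe read 228.5 in P815 with imatinib, 313.5 in P815 without imatinib, 411 in BMMC with SCF and 673.5 in BMMC without SCF. It was listed in P815 without imatinib and in BMMC without SCF only. The human-named miR-34b probe read 211 and 293 in P815 with and without imatinib, where it was not listed, against 437 in BMMC with SCF and 549.5 in BMMC without SCF, where it was. The 2 miR-34b probes were thus listed on different arrays, and only BMMC without SCF listed both.

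The miR-34c probe read 239.5 in P815 with imatinib, 330 in P815 without imatinib, 468.5 in BMMC with SCF and 672 in BMMC without SCF, and was listed on 3 arrays, all but P815 with imatinib. In unscaled intensity both P815 arrays lay below both BMMC arrays for miR-34b and miR-34c, as they did for 81.7% of the mouse miRNAs. After normalization the cell types overlapped on all 3 of these probes. None of the 3 exceeded its own mismatch probe by as much as 2-fold on any array: the highest ratio was 1.93, for mouse-named miR-34b in BMMC without SCF.

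Between cell types miR-34b and miR-34c were within 2-fold after normalization, unlike miR-34a, but part of this depended on the processing. In P815 without imatinib against BMMC with SCF, mouse-named miR-34b was higher by 0.39 on the log2 scale, human-named miR-34b by 0.05 and miR-34c by 0.34. The miR-34b and miR-34c values turned negative without scaling (-0.43 and -0.57) and with the own mismatch probe subtracted, which was also unscaled (-0.67 and -0.96). The median of all listed mouse miRNAs without scaling was -1.30 in this pair. Normalized, the mismatch probes were higher too, by 0.22 for mouse-named miR-34b, 0.15 for human-named miR-34b and 0.20 for miR-34c. In P815 with imatinib against BMMC without SCF the matched probes lay at -0.51, -0.35 and -0.40. There, miR-34b and miR-34c were at -1.77 and -1.68 without scaling, -1.71 and -0.88 with the mismatch median subtracted, and -2.70 and -2.36 with the own mismatch probe subtracted, again unscaled. The values of -2.70 and -2.36 are limited by the floor of 50 in P815 with imatinib, where matched minus mismatch was 38.5 and 45.0. miR-34b and miR-34c thus reached 2-fold in the direction of miR-34a under those settings, except miR-34c with the mismatch median subtracted. Of the 258 listed mouse miRNAs, 171 were at least 2-fold lower there without scaling and 62 with the mismatch median subtracted. At the 2-fold threshold 1 of the 3 miRNAs, miR-34a, was called in each of the 2 pairs, where 49.2% and 22.1% of the listed mouse miRNAs were called in either direction. Among listed virus and worm probes, 27.5% and 13.3% were called. A count of 1 in 3 is near these shares and is no result about the family as a whole. miR-34a also kept its direction under every processing tried here, from -1.85 to -5.08 in the first pair and from -1.55 to -5.34 in the second. The lowest values are unscaled, with the own mismatch probe subtracted, and are limited by a floor.

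**Figure D2:**
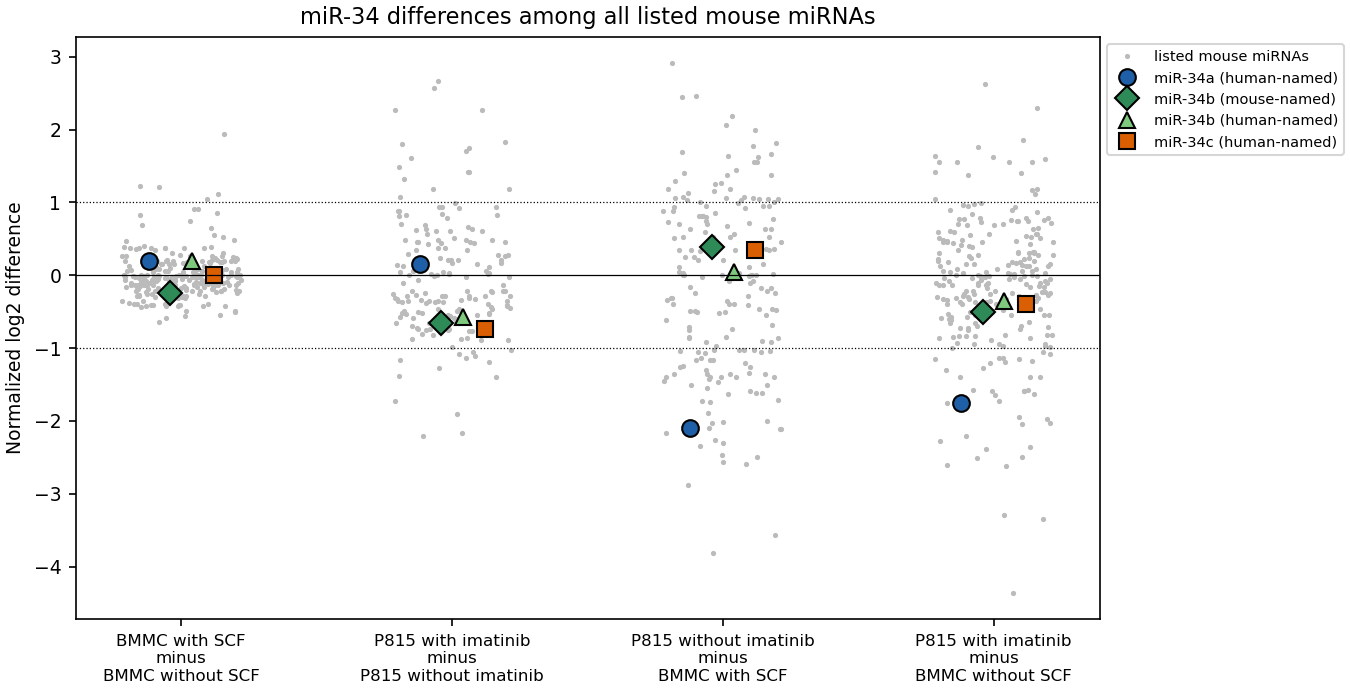
Normalized log2 difference (y axis) in the 4 comparisons (x axis) for the miR-34 probes (large symbols) and for every listed mouse miRNA (grey points); dotted lines mark 2-fold. miR-34a lies at -2.09 and -1.75 in the comparisons of P815 with BMMC, whereas every other value of the family is within the 2-fold lines.

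The next comparison was of ligand stimulation in primary mast cells, where the normalized differences within the family were small. miR-34a read 2064 in BMMC with SCF against 2519 in BMMC without SCF, a normalized difference of 0.19. The whole array was dimmer with SCF and the sign of this value depended on the scaling: it was -0.29 without scaling and -0.58 in the authors' deposited table. miR-34c lay at 0.00, human-named miR-34b at 0.19 and mouse-named miR-34b at -0.24, the last with a lower bound of 1.16-fold since it was not listed with SCF. The mismatch probe of mouse-named miR-34b was higher by 0.50 with SCF. The 2 miR-34b probes differed in sign. With the own mismatch probe subtracted and no scaling, miR-34b lay at -1.95, miR-34c at -1.02 and miR-34a at -0.26, so the first 2 were then past 2-fold. Without scaling the median of all listed mouse miRNAs was itself -0.61. In the normalized values the count was lower. Normalized, none of the 3 miRNAs was 2-fold apart, and 1.96% of the 255 listed mouse miRNAs and 1.67% of virus and worm probes were.

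In unscaled intensity every member was dimmer with SCF, by a ratio of 0.819 for miR-34a, 0.795 for human-named miR-34b, 0.697 for miR-34c and 0.61 for mouse-named miR-34b. The median listed mouse miRNA differed by -0.61 on the log2 scale before scaling, and miR-34a lay 0.31 above that median without scaling, miR-34c 0.01 above it and miR-34b 0.24 below it (a difference of -0.24). In the authors' deposited table human-named miR-34b was 1.90-fold lower with SCF (-0.93), mouse-named miR-34b 3.27-fold lower, an open-ended value, and miR-34c 2.36-fold lower. There, 40.9% of the mouse miRNAs were at least 2-fold lower with SCF and the median was -0.90.

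P815 with and without imatinib compared the mutant line given the inhibitor with the untreated line. miR-34a read 354 in P815 with imatinib and 312.5 in P815 without imatinib, a normalized difference of 0.15, which became -0.15 with 75th percentile scaling and with cyclic loess. Its mismatch probe was higher by 0.78 over the same arrays. miR-34c lay at -0.74, mouse-named miR-34b at -0.66 and human-named miR-34b at -0.58. miR-34c and mouse-named miR-34b were listed only without imatinib, which gives lower bounds of 1.45-fold and 1.27-fold, and human-named miR-34b was listed on neither array.

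The mismatch probes of miR-34b and miR-34c went the same way. They differed by -0.47 for miR-34c, -0.49 for mouse-named miR-34b and -0.32 for human-named miR-34b. With the own mismatch probe subtracted and no scaling, miR-34c differed by -0.38 and miR-34b by -0.07, with the imatinib array at the floor of 50 in both. None of the 3 miRNAs was 2-fold apart, against 16.3% of the 184 listed mouse miRNAs, whose median was -0.22, and 12.2% of virus and worm probes. At 1.5-fold miR-34b and miR-34c were called, as were 44.0% of the mouse miRNAs. In the authors' deposited table miR-34c was 2.25-fold lower with imatinib, again open-ended, where 13.6% of mouse miRNAs were at least 2-fold lower. Mouse-named miR-34b was 1.96-fold lower there, also open-ended, and miR-34a lay at 0.00. With the mismatch median subtracted, miR-34b and miR-34c lay at -1.97 and -1.46, where 34 of the 184 listed mouse miRNAs were at least 2-fold lower and 32 higher.

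**Figure D3:**
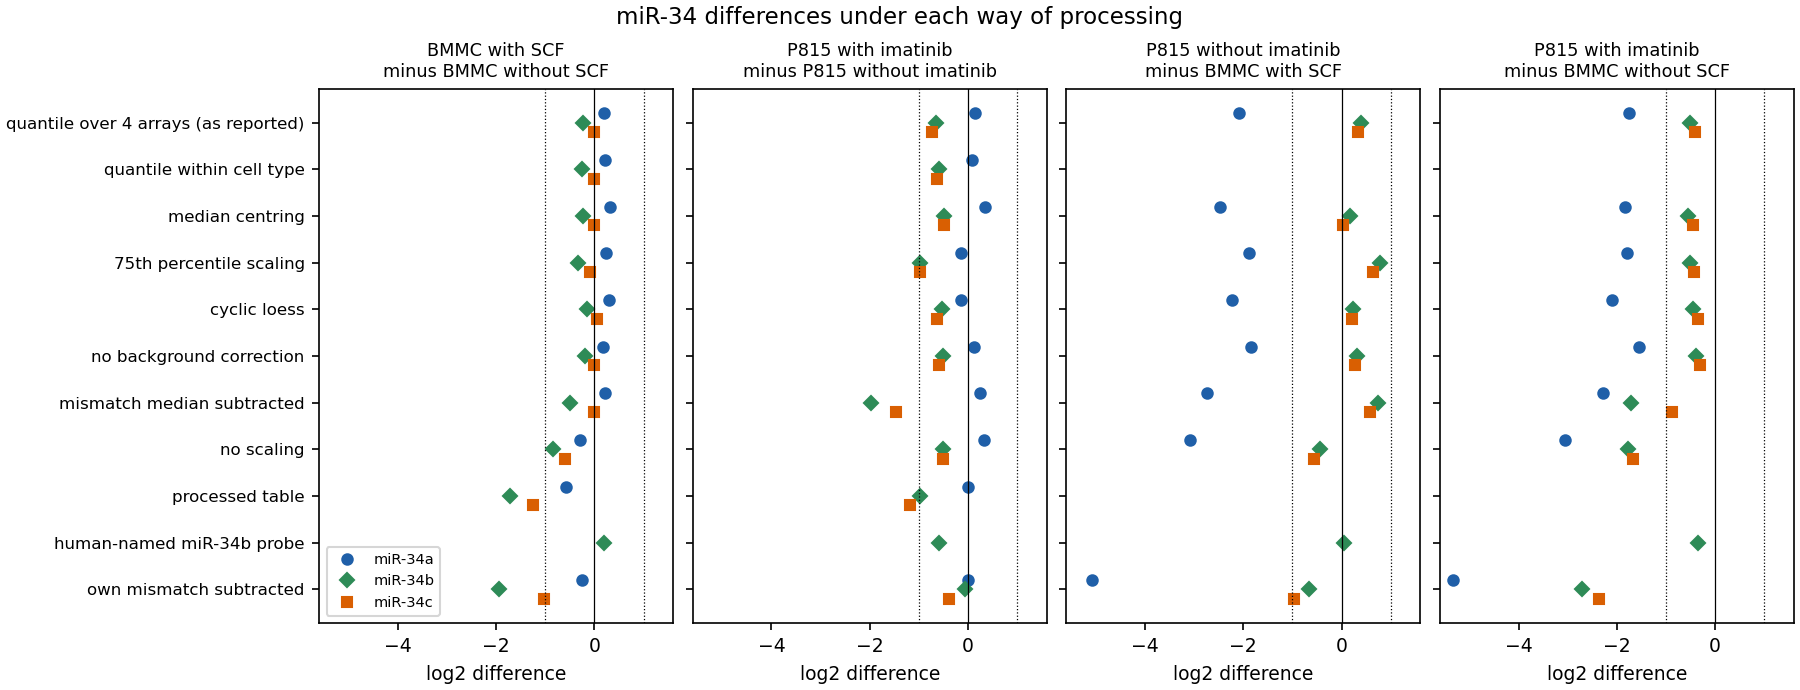
Log2 difference (x axis) of miR-34a, miR-34b and miR-34c in each comparison (panels) under each way of processing (rows), with dotted lines at 2-fold. The miR-34a values of the 2 comparisons between cell types lie below -1 in every row, while miR-34b and miR-34c cross 0 in P815 without imatinib against BMMC with SCF.

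The seed relatives of the family on the array, taken by name as miR-449 and miR-449b, were as dim as miR-34b and miR-34c. No miR-449b was among the 4 sequences found with the seed, so its place here rests on its name. The human-named miR-449 probe was listed on all arrays, with 282 in P815 with imatinib, 391.5 in P815 without imatinib, 434 in BMMC with SCF and 525.5 in BMMC without SCF. It was 2.03-fold lower with imatinib (-1.02), as 7.61% of listed mouse miRNAs were by 2-fold or more. But it was under 2-fold with median centring (-0.49), 75th percentile scaling (-0.98), no scaling (-0.51), cyclic loess (-0.73) and no background correction (-0.85). With the mismatch median subtracted it was past 2-fold (-1.62), where 34 of the 184 listed mouse miRNAs were at least 2-fold lower. In the authors' deposited table it lay at -1.56, where 13.6% of mouse miRNAs were at least 2-fold lower. Against BMMC with SCF, P815 without imatinib had 2.05-fold more (1.03), and 19.0% of listed mouse miRNAs were at least 2-fold higher there. This second value was under 2-fold with median centring (0.49), cyclic loess (0.75) and no background correction (0.86), and its sign turned without scaling, to -0.12. It stayed past 2-fold with 75th percentile scaling (1.09) and with the mismatch median subtracted (1.64). Under those settings 38 and 56 of the 195 listed mouse miRNAs were at least 2-fold higher. The mouse-named miR-449b probe, listed on 2 arrays, differed by -1.11 and 0.99 in these comparisons, with lower bounds of 1.74-fold and 1.76-fold. The second value was -0.06 without scaling. The human-named miR-449b probe differed by -0.64 and 0.94, the second with a lower bound of 1.70-fold and again turning without scaling, to -0.07. After normalization both P815 arrays lay above both BMMC arrays for human-named miR-449b and, narrowly, for miR-449, as for 27.8% of mouse miRNAs, and below them without scaling, whereas mouse-named miR-449b overlapped. The miR-449 mismatch probe differed by -0.29 with imatinib.

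A probe named for worm miR-34, which has no place among mouse miRNAs by name, read 748.5 in P815 with imatinib, 435 in P815 without imatinib, 825.5 in BMMC with SCF and 1286.5 in BMMC without SCF. It was the only 1 of 10 worm probes listed on all 4 arrays. Normalized, it differed by 0.21 and 0.28 in the comparisons of P815 with BMMC, so it did not share the low P815 level of miR-34a. The first of these values turned to -0.44 with median centring, -0.10 with cyclic loess and -1.04 without scaling, and the second to -0.78 without scaling. Which RNA it reads in mouse cells was not tested.

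**Figure D4:**
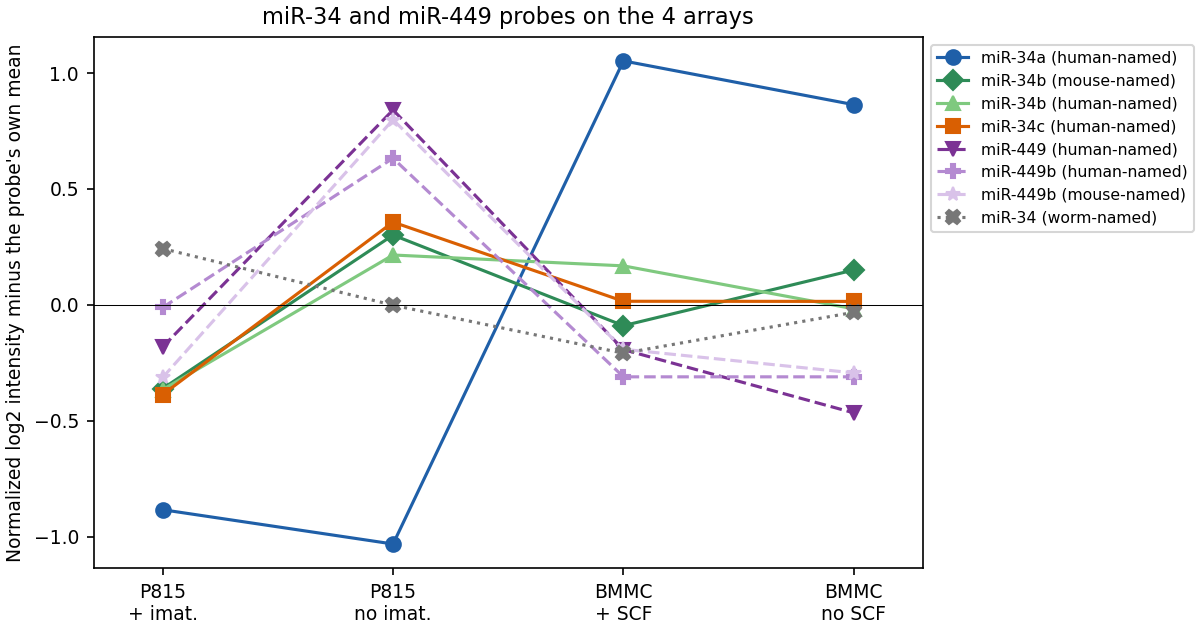
Normalized log2 intensity minus the probe's own mean over the 4 arrays (y axis) for the miR-34, miR-449 and worm miR-34 probes, 1 array per group (x axis); lines only join the points of 1 probe. miR-34a lies at -0.88 and -1.03 in the P815 arrays and at 1.05 and 0.86 in the BMMC arrays, and the miR-449 probes are highest in P815 without imatinib.

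Other miRNAs tied to p53 were read from 2 chosen lists, whose roles are known mainly from human cells. Of 10 miRNAs that p53 induces or whose maturation it promotes, 9 were on the array and 5 were listed in P815 without imatinib or BMMC with SCF. Of these 5, 3 were at least 2-fold lower in P815: miR-107 (-2.56), miR-145 (-1.62) and miR-15a (-1.03), where 30.3% of all listed mouse miRNAs were. miR-15a was named after its values were seen. miR-145 was not listed in P815 without imatinib, at 179.0 under a limit of 304.5, and read 539.5 in BMMC with SCF, where the limit was 416. Its -1.62 thus rests on a P815 value below the limit, and no bound was given for it. miR-215, at 1.06, was the 1 that was at least 2-fold above BMMC, and the median of the 5 was -1.03. The median of all listed mouse miRNAs was -0.08 in each comparison between cell types. The list's median stayed negative under the other scalings and background corrections, between -0.96 and -2.40. The lowest was without scaling, where the median of all listed mouse miRNAs was -1.30. In P815 with imatinib against BMMC without SCF, 7 were listed, 2 of them at least 2-fold lower (miR-107 at -2.20 and miR-15a at -1.39), where 15.1% of all listed mouse miRNAs were. The median of these 7 was -0.30, and it was -0.82 with median centring, -0.79 with 75th percentile scaling, -0.70 with cyclic loess and -2.05 without scaling. Without scaling the median of all listed mouse miRNAs was -1.29 in this pair. With SCF the list's median was 0.00, and -0.48 without scaling, where that of all listed mouse miRNAs was -0.61. With imatinib the list's median was 0.00, but 0.65 with median centring, 0.63 without scaling, 0.16 with 75th percentile scaling and -0.17 with cyclic loess. The median of all listed mouse miRNAs was 0.37, 0.35, -0.13 and -0.19 under these settings. Whether the miR-107 probe also reads the near-identical miR-103 was not tested.

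The second list held 10 miRNAs that p53 represses or that target p53, all on the array and 8 of them listed. Whether its members are made from separate transcripts was not tested, so counts over the list may not be of independent miRNAs. In P815 without imatinib against BMMC with SCF, 4 were at least 2-fold higher: miR-92 (1.69), miR-20a (1.64), miR-17-5p (1.55) and miR-25 (1.27), the last pair named after their values were seen. Of all listed mouse miRNAs, 19.0% were at least 2-fold higher there and 30.3% at least 2-fold lower. In the same comparison 1 was at least 2-fold lower, miR-30d at -2.47, which was not listed in P815 without imatinib. The list's median was 1.11, and it was -0.19 without scaling, where that of all listed mouse miRNAs was -1.30. In P815 with imatinib against BMMC without SCF, 3 reached 2-fold upward, where 6.98% of listed mouse miRNAs did, and miR-30d reached it downward (-1.59). The list's median there was 0.70 and became -0.63 without scaling, where that of all listed mouse miRNAs was -1.29. Of all listed mouse miRNAs, 1.96% were at least 2-fold apart with SCF and 16.3% with imatinib. With SCF no member of either list was 2-fold apart, and with imatinib 1 was, miR-19b, at -1.06. It lay in the list of miRNAs that p53 represses or that target p53, whose median with imatinib was -0.31. That list's median turned to 0.18 with median centring and 0.16 without scaling. The median of all listed mouse miRNAs was 0.37 and 0.35 under these settings.

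Patterns over the 4 arrays were set side by side by the root mean square distance between log2 values centred on each miRNA's own mean, among 197 miRNAs listed on at least 2 arrays. The likest to miR-34a were miR-30b (distance 0.07), miR-181a (0.07) and let-7c (0.09), each about 2 below BMMC with SCF in P815 without imatinib, at -2.11, -2.01 and -2.03. Of these, miR-181a was below the listing limit on both P815 arrays, at 264.5 with imatinib and 263.25 without. The likest to miR-34b were miR-532 (0.08), miR-509 (0.11) and miR-130a (0.13). The likest to miR-34c were miR-532 (0.07), miR-101b (0.10) and miR-299-3p (0.11). In P815 with imatinib miR-509 read 244.5 and miR-299-3p 240.0, below the limit of 270. In BMMC with SCF they read 385 and 407, below the limit of 416. Within a distance of 0.25 there were 10 miRNAs for miR-34a, 19 for miR-34b and 21 for miR-34c, of the 197 compared.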

How the data were processed

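Total RNA was labelled with Cy3 by RNA ligase, per the labels' protocols. The deposited tables hold, per the file headers, a mean of foreground medians for every probe, an intensity on a linear scale. For array maker, scanner and image software: not given in the sources used here. In the authors' processed table, the median mismatch probe was taken off each intensity and probes under 1.5 times it were left blank (so for all 802 rows of every array), with the treated arrays multiplied by 0.834 (BMMC with SCF) and 0.628 (P815 with imatinib). This was found from the values. Intensities were corrected with normexp (offset 50) in limma 3.58.1 (R 4.3.3) and log2 values were quantile-normalized over the 785 matched miRNA probes. Mismatch probes were carried onto that scale through each array's own map. The normalization was run on simulated data with about as many rises as falls, set in bright probes only. That run does not cover probes near background or changes mostly in a single direction.

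A mouse miRNA was read by its mouse-named probe, otherwise the human-named and then the rat-named one where GRCm38.p6 holds a gene of that name (167, 204 and 16 miRNAs). A difference was taken for miRNAs listed on 1 or both arrays, and called at 2-fold. Where 1 array only listed a probe, its value was divided by the lowest listed value of the second array, or by the probe's own if that was higher. This gives a lower bound on the fold. Members of the 3 miRNAs were all named, and for each the 3 miRNAs nearest in pattern. The members and the lists were chosen with earlier results of these data known. The number of arrays limits the precision.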

Additional observations from a re-analysis of the deposited data

Results flagged for a closer look

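Among the members, miR-34a differed by 0.19 with SCF in BMMC and by 0.15 with imatinib in P815, both upward, and mouse-named miR-34b by -0.24 with SCF and -0.66 with imatinib, both downward. In these normalized values the KIT ligand and the KIT inhibitor went the same way for each of the 2 probes, a difference that was not tested, as there is 1 array per group. Without scaling the miR-34a values were -0.29 with SCF and 0.33 with imatinib, so opposite. The human-named miR-34b probe went opposite ways, 0.19 with SCF and -0.58 with imatinib. Of the 176 mouse miRNAs listed in both comparisons, 45.5% went the same way in both.

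Signal also appeared on probes outside the comparisons. The miR-34a mismatch probe was above the listing limit in P815 with imatinib, at 403, and in BMMC without SCF, at 495. In P815 with imatinib 51 of the 280 mismatch probes of mouse miRNAs were above it. The worm miR-34 probe was above the limit on all arrays, at 748.5 in P815 with imatinib, 435 in P815 without imatinib, 825.5 in BMMC with SCF and 1286.5 in BMMC without SCF.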

How the results depend on the processing

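The count of miR-34 miRNAs at least 2-fold apart was 0 with SCF, 0 with imatinib and 1 in each comparison of P815 with BMMC. With SCF it became 2 in the authors' deposited table and 2 with the own mismatch probe subtracted, an unscaled alternative chosen after seeing the data. With imatinib it became 2 with the mismatch median subtracted, 1 in the authors' deposited table and 2 at a threshold of 1.5-fold. In P815 with imatinib against BMMC without SCF it became 3 without scaling, 2 with the mismatch median subtracted and 3 with the own mismatch probe subtracted. In P815 without imatinib against BMMC with SCF it stayed 1 under every alternative run. The cause was not tested. miR-34a kept its sign in all 7 alternatives of each comparison between cell types. With SCF it kept it in 6 of 9 and with imatinib in 5 of 9. The median of all listed mouse miRNAs without scaling was -1.30 in P815 without imatinib against BMMC with SCF, and -1.29 in the other such pair. Listed mouse miRNAs at least 2-fold higher and lower numbered 16 and 14 of 184 with imatinib. They numbered 38 and 3 with median centring, and 32 and 34 with the mismatch median subtracted. In P815 without imatinib against BMMC with SCF they numbered 37 and 59, but 7 and 77 with median centring, 18 and 60 with cyclic loess and 2 and 113 without scaling. In P815 with imatinib against BMMC without SCF they numbered 18 and 39 of 258, but 1 and 171 without scaling and 41 and 62 with the mismatch median subtracted. With SCF they numbered 5 and 0, but 1 and 15 without scaling. No such count is given here with the own mismatch probe subtracted. No paired analysis was possible because each group has 1 array. Nearness to background limits miR-34b and miR-34c on every array and miR-34a in P815.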
